A study of Homo sapiens with 6 samples.

Results

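Cancer-testis and germline genes are genes whose transcripts are normally found in germ cells and that reappear in many tumours. A list of 34 of them was followed through RNA sequencing of Kasumi-1, a human acute myeloid leukaemia cell line that carries the RUNX1-RUNX1T1 fusion. Members were chosen by symbol, each symbol was matched to an Ensembl gene ID, and that ID was looked up in the deposited table, which holds 27576 genes. A row was present for 7 of the 34 members and absent for 27, which the choice of members counts as not detected. The list was drawn up with results of these data known, among them the low value of MAGEB2 after interleukin-10 (IL-10), so presence in the table, the levels and the difference of MAGEB2 are descriptions. The cells were grown in RPMI1640 medium with 20% fetal bovine serum. The 3 IL-10 libraries came from cells given 10 ng/ml of recombinant human IL-10 for 72 h, and the 3 control libraries from cells given 0.5% bovine serum albumin for 72 h. Nothing in the labels shows whether the replicates were grown apart, and p-values here cover the spread of these 6 libraries alone, which may be technical.

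In somatic cells most of these genes are held silent by DNA methylation and repressive chromatin at their promoters, and loss of that silencing in tumours makes their proteins targets for T cells and for vaccines. The MAGE-A, MAGE-B and MAGE-C genes of chromosome X (type I MAGE genes) encode partners of ubiquitin ligases, PRAME encodes a substrate receptor of a cullin ubiquitin ligase that can dampen retinoic acid signalling, and CTAG1B encodes the vaccine antigen NY-ESO-1. SYCP1 and SYCP3 build the synaptonemal complex that joins homologous chromosomes in meiosis, STAG3 is a subunit of meiotic cohesin, and PIWIL1, TDRD1 and MAEL act in the piRNA pathway that silences transposons in germ cells.

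The promoters of 4 members with a row are shown first, with the promoter shared by an antigen pair without one, because promoters are where these genes are silenced. The windows run from 250 bases before to 50 after an annotated transcription start, from RefSeq on GRCh38.p14, 5′ to 3′ on the strand of the gene. Capitals mark each CpG, the dinucleotide that carries DNA methylation. PRAME lies at chr22:22559216-22559515 on the minus strand, SYCP3 at chr12:101739413-101739712 on the minus strand, MAGEB2 at chrX:30215313-30215612 and MAGEB1 (the second of its annotated starts) at chrX:30246896-30247195, both on the plus strand. MAGEA3 lies at chrX:152698544-152698843 on the plus strand, and the window of MAGEA6, at chrX:152769640-152769939 on the minus strand, is identical to it over all 300 bases.
PRAME: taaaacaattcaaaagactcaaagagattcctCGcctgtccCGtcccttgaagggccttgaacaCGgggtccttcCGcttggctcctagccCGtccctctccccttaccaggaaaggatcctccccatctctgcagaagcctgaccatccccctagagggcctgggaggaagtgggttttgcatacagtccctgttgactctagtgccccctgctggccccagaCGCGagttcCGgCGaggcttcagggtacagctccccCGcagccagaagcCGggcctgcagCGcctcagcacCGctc
SYCP3: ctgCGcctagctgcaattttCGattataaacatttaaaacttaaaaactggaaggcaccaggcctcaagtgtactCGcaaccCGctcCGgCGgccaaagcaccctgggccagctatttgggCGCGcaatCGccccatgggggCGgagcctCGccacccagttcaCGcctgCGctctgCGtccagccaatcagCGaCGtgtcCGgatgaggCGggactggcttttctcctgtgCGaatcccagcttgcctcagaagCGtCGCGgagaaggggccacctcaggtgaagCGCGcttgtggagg
MAGEB2: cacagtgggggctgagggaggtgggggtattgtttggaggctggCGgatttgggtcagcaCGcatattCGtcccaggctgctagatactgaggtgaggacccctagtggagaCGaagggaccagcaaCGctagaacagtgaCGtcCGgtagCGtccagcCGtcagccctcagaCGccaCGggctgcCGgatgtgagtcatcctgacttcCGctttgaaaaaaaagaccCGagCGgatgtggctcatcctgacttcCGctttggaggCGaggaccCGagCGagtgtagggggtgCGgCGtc
MAGEB1: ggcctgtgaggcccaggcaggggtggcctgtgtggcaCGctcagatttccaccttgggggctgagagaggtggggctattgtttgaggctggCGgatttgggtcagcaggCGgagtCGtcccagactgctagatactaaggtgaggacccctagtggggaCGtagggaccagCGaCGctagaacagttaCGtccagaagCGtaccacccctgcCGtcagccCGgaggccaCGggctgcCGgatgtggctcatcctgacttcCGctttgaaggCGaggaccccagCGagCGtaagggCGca
MAGEA3 and MAGEA6: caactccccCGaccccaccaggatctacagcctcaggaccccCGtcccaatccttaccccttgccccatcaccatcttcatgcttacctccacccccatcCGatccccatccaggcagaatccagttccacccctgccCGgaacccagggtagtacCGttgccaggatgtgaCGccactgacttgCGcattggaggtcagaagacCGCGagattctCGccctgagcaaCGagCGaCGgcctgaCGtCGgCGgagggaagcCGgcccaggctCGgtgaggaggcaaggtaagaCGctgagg

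A promoter window was found for 27 of the 34 members: all 7 with a row and 20 without one. At the start richest in CpG of each gene, members with a row held 1 to 30 CpG with a median of 21, and members without a row held 3 to 60 with a median of 15, where the median of 27305 genes was 16. Counts of at least 20 CpG were found in 4 of 7 members with a row, in 5 of 20 without one and in 44.7% of all genes. PRAME, the most abundant member, had 13 CpG, and the piRNA gene MAEL, without a row, had 60. DDX4, with 1 CpG, has in this table a start inside its GENCODE gene body. The letters CCGGAA, searched on both strands, hold the core bound by ETS factors and a CpG. At any annotated start, they were present in 2 of 7 members with a row (PRAME and STAG3), in 6 of 20 without one and in 20.1% of all genes. The 6 include MAGEA3 and MAGEA6, whose windows are identical. The windows of MAGEB1 and MAGEB2, both on chromosome X, share a run of 30 bases, CGgatgtggctcatcctgacttcCGctttg, which occurs in 2 of 35116 windows of the table, theirs. The plot of CpG counts by gene shows both sets. DNA methylation was not measured here.

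**Figure D1:**
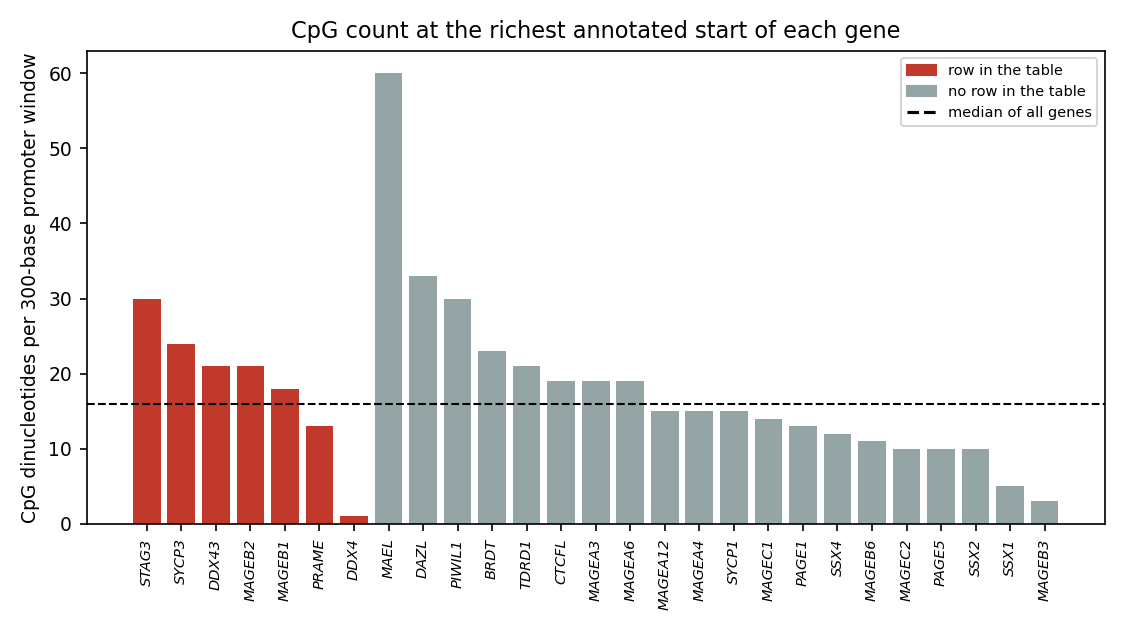
CpG dinucleotides per promoter window (y axis) for each member with a window (x axis), at the annotated start with the most CpG; bar colour gives whether the gene had a row in the table, and the dashed line is the median of all genes, 16. Members with a row range from 1 to 30 and members without one from 3 to 60.

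Values below are normalised read counts, that is, reads divided by a size factor of the library, and recovered reads are given where they are few. Depth was 20750115 to 23077693 reads in IL-10 libraries and 22429270 to 24222897 in control libraries. The markers of Kasumi-1 were present in every library (6 of 6 genes: RUNX1T1, KIT, CD34, MPO, CD33 and ANPEP). IL-10 replicate 2 stood apart from the other 5 libraries: its median log2 deviation from their mean was 0.86 in the 1158 genes highest in GC content and -0.71 in the 1158 lowest. Liver genes were high in replicate 2 of both groups, in 14 of 14 markers other than SERPINA1. The summed value of these 14 was 652 in IL-10 replicate 2 and 1364 in control replicate 2, against 20.3 to 40.0 in the other 4 libraries. SERPINA1, the liver marker of highest mean, went the other way. It stood at 1158 in IL-10 replicate 2 and 879 in control replicate 2, against 1300 to 1664 in the other 4. With SERPINA1 included the sums were 1810 and 2243, against 1334 to 1693. None of the 7 members was higher, or lower, in both replicate 2 libraries than in the other 4.

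Most members had no row. The lowest total of any row was 2 reads over the 6 libraries together, a total held by 1756 rows, and whether a gene without a row was counted at fewer reads or was not in the authors' annotation is not given in the sources used here. Of the 20 members on chromosome X, 2 had a row (10%), where 61.2% of the 845 protein-coding genes of that chromosome did. Of the 14 members on autosomes, 5 had a row (35.7%), where 76.9% of all 19951 protein-coding genes, those of chromosome X included, did. Members and comparison genes were not picked in the same way, so these shares are descriptions.

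Among the type I MAGE genes, MAGEB1 and MAGEB2 had a row and the other 11 did not. Those were the melanoma antigen genes MAGEA1, MAGEA3, MAGEA4, MAGEA6, MAGEA10 and MAGEA12, then MAGEB3, MAGEB6 and MAGEB17, and MAGEC1 and MAGEC2. Of the other antigen families PRAME had a row and 7 did not: SSX1, SSX2 and SSX4 (partners of the SS18 fusion in synovial sarcoma), CTAG1B and CTAG2, and PAGE1 and PAGE5. Of the regulators, the RNA helicase genes DDX43 and DDX4 had a row, while CTCFL (the germline paralogue of the insulator protein CTCF), BRDT (a testis bromodomain protein) and DAZL (a germ-cell RNA-binding protein) did not. Of the meiosis and bridge genes, SYCP3 and STAG3 had a row, while SYCP1, TEX14 (needed for the bridges between germ cells) and TEX15 did not. The piRNA genes MAEL, PIWIL1 and TDRD1 had none.

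For some of the antigens without a row, near-identical copies limit what a missing row can show. Of all 50-base windows in the GENCODE 29 transcripts of SSX2, 100% also occur in SSX2B, and of those of SSX4, 100% occur in SSX4B. For CTAG1B the share found in CTAG1A was 89.9%, and for MAGEA3 the share found in MAGEA6 was 54.9%. How reads that match several genes were counted is not given in the sources used here. XAGE1A, a cancer-testis gene with all of its windows in XAGE1B, did have a row, at 58.9 to 107 in IL-10 libraries and 63.2 to 68.9 in control libraries. MAGEB2, PRAME and DDX4 shared no window with another gene.

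**Figure D2:**
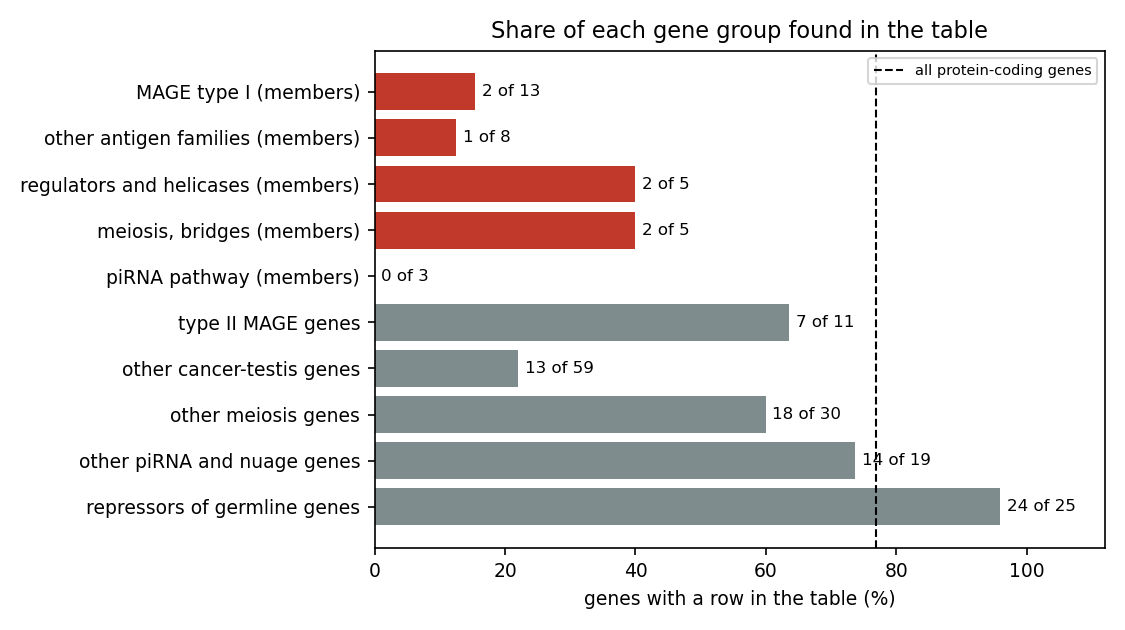
Percent of the genes of each group that had a row in the table (x axis), with counts beside the bars; red bars are the roles of the 34 members, grey bars are other gene groups, and the dashed line is all protein-coding genes, 76.9%. Type I MAGE members stand at 2 of 13 and the type II MAGE genes at 7 of 11.

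PRAME was the one abundant member. Its value was 468, 510.1 and 598 in IL-10 replicates 1, 2 and 3, against 552, 509 and 579 in control replicates 1, 2 and 3. The groups overlapped, and IL-10 replicate 1 was lowest. PRAME (ENSG00000185686, chromosome 22, 22547701 to 22559361, minus strand) averaged 526 ± 66.5 with IL-10 and 547 ± 35.3 in control (SD, n = 3 each), a log2 fold change of -0.06 with a 95% interval of -0.45 to 0.32 on the log2(value + 1) scale in limma. Recovered reads summed to 1502 with IL-10 and 1755 in control, a ratio of 0.965 for library size with an exact 95% interval of 0.901 to 1.03 that covers counting error only.

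SYCP3, a lateral element protein of the synaptonemal complex, was lower in each IL-10 library than in any control library. It stood at 14.96, 10.6 and 17.1 in IL-10 replicates 1, 2 and 3 and at 32.6, 29.8 and 19.6 in control replicates 1, 2 and 3. The nearest values, 17.1 and 19.6, were those of replicate 3 in both groups. SYCP3 (ENSG00000139351, chromosome 12, 101728648 to 101739472, minus strand) averaged 14.2 ± 3.32 with IL-10 and 27.3 ± 6.87 in control (SD, n = 3 each). The log2 fold change of SYCP3 was -0.89 (95% interval -1.66 to -0.12), and it did not pass the threshold of 0.05 (adjusted p = 0.982 in limma, by the Benjamini-Hochberg method over 21946 genes). Without IL-10 replicate 2 the log2 fold change was -0.71 (-1.49 to 0.07). The log2 ratio within same-numbered libraries was -1.07, -1.41 and -0.19 in replicates 1, 2 and 3.

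Part of SYCP3 overlaps another gene. Exons of SYCP3 overlap exons of CHPT1, a lipid synthesis gene on the opposite strand, and 12.6% of the 50-base windows of SYCP3 occur in CHPT1 transcripts. Reads of that part cannot be assigned to one of the genes without strand, whose use is not known here. CHPT1 was far more abundant, at 2025, 2605 and 1947 in IL-10 replicates 1, 2 and 3, against 1880, 2038 and 1880 in control replicates 1, 2 and 3. Its part in the values of SYCP3 was not tested. SYCP3 transcripts are poor in GC (37.6% in the longest), and IL-10 replicate 2, in which such genes were low, held the lowest value of SYCP3. The part of that library in the difference was not tested beyond the value without it.

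STAG3, the meiotic cohesin subunit, overlapped between the groups. It stood at 19.2, 25.9 and 36.1 in IL-10 replicates 1, 2 and 3, against 25.2, 14.9 and 25.8 in control replicates 1, 2 and 3. Its range was 14.9 to 36.1, with the highest value in IL-10 replicate 3 and the lowest in control replicate 2. STAG3 (ENSG00000066923, chromosome 7, 100177563 to 100221488) averaged 27.1 ± 8.49 with IL-10 and 21.96 ± 6.11 in control (SD, n = 3 each), a log2 fold change of 0.28 (95% interval -0.52 to 1.09; adjusted p = 0.982 in limma). Without control replicate 2 the log2 fold change was 0.04. Of its 50-base windows 30.9% occur in transcripts of other genes, most often PVRIG, which overlaps it on the same strand and had no row. Exons of STAG3 also overlap those of CASTOR3P on the opposite strand, at 28.9 to 61.1 in IL-10 libraries and 41.8 to 56.9 in control libraries. The level of STAG3 is therefore uncertain.

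DDX43, an RNA helicase gene first described as a tumour antigen, stood at 5.34, 10.6 and 11.4 in IL-10 replicates 1, 2 and 3, against 13.04, 10.9 and 8.90 in control replicates 1, 2 and 3. These are 5, 9 and 12 reads with IL-10 and 14, 11 and 10 reads in control. The groups overlapped, and IL-10 replicate 1 was lowest. The means were 9.11 ± 3.28 with IL-10 and 10.96 ± 2.07 in control (SD, n = 3 each). The log2 fold change was -0.29 (95% interval -1.20 to 0.62; adjusted p = 0.982 in limma), and without IL-10 replicate 1 it was 0.02. Exons of DDX43 (ENSG00000080007, chromosome 6, 73394748 to 73417569) overlap those of CGAS, a DNA sensor gene on the opposite strand, at 1055 to 1490 in IL-10 libraries and 1124.6 to 1394 in control libraries, and those of OOEP, an oocyte gene also on the opposite strand, at 0 in IL-10 libraries and 0 to 3.98 in control libraries. Of the 50-base windows of DDX43 15.2% occur in transcripts of other genes, 12.2% in OOEP, and reads of those windows cannot be assigned without strand.

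MAGEB2 was nearly absent from IL-10 libraries and low in control libraries. It had 0, 0 and 1 reads in IL-10 replicates 1, 2 and 3, against 6, 12 and 8 reads in control replicates 1, 2 and 3. Every control library held more reads than any IL-10 library, and control replicate 2 was highest. As normalised counts these are 0, 0 and 0.95 with IL-10, against 5.59, 11.9 and 7.12 in control. The totals were 1 read with IL-10 and 26 reads in control. MAGEB2 (ENSG00000099399, chromosome X, 30215560 to 30220089) was known for this difference before it was put on the list, so no test is given for it. It passed the filter on low values, at least 1 in at least 3 libraries, through its control libraries alone. In bulk RNA fewer cells with a transcript and less of it per cell cannot be told apart.

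MAGEB1, which shares the 30-base run of its promoter with MAGEB2, was at a few reads in both groups. It had 0, 1 and 3 reads in IL-10 replicates 1, 2 and 3, against 1, 1 and 4 reads in control replicates 1, 2 and 3. The groups overlapped, and replicate 3 was highest in both. The pooled ratio of IL-10 over control was 0.752, with an exact 95% interval of 0.156 to 3.17 for counting error only. MAGEB1 and MAGEB2 lie in the MAGE-B cluster, with MAGEB3, which had no row, between them. MAGEB4, also without a row, begins between them and overlaps exons of MAGEB1 on the same strand.

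DDX4 (VASA), the helicase that marks germ cells, had 1 read in IL-10 replicate 2, 1 read in control replicate 3 and 0 in the other 4 libraries. It stood at the lowest total of any row, 2 reads, and was the 1 member with a row that failed the filter on low values. No difference between groups can be read from it.

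**Figure D3:**
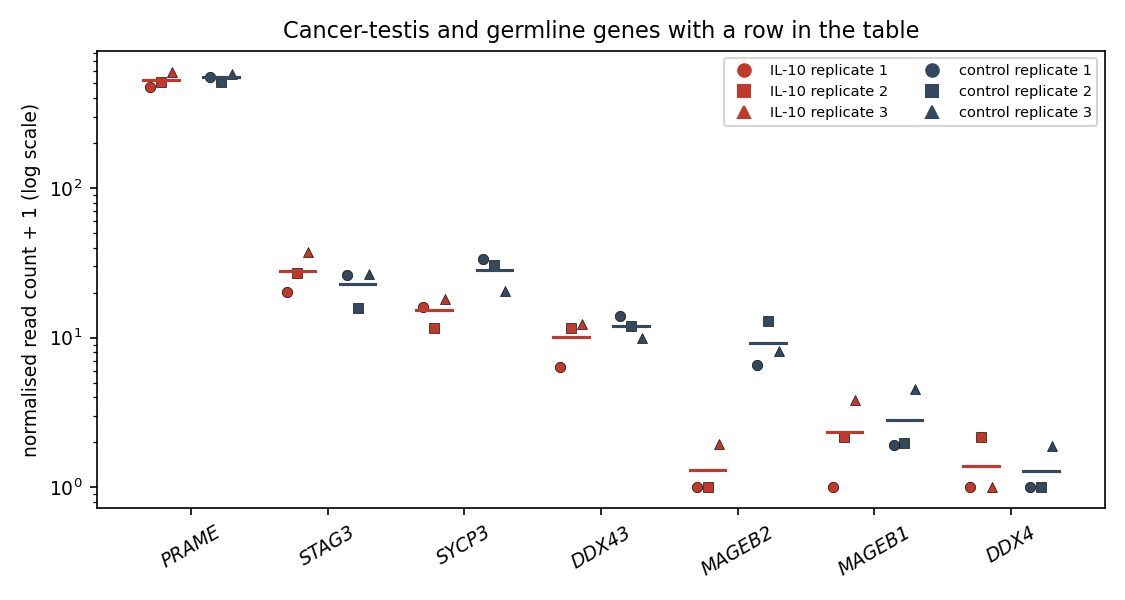
Normalised read count plus 1 (y axis, log scale) of each member with a row (x axis) in the 3 IL-10 and 3 control libraries; point shape is the replicate number and short lines are group means. PRAME lies near 500 in all 6 libraries, and the groups do not overlap in SYCP3 and MAGEB2.

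Besides MAGEB2, for which no test is given, 5 members passed the filter. Of these 5, 0 passed the threshold for IL-10 against control in limma, where 0% of all 21946 genes did (344 at an unadjusted p under 0.05). edgeR and DESeq2 on recovered reads called 0 of them, and 0 genes in all. At an unadjusted p under 0.05 they had 265 and 80 genes, with 22530 and 27563 tested. The groups did not overlap in 1 of the 5, SYCP3, which was lower with IL-10, where 3.02% of all genes tested were lower without overlap, 2.85% higher and 5.87% either. The log2 fold change was negative in 4 of the 5 and positive in 1, STAG3, with a median of -0.29, against 0.02 over all genes tested.

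Airway secretory genes, whose low values with IL-10 were known from earlier results, were mostly low in the same libraries as SYCP3 and MAGEB2, but 0 of the 9 tested passed the threshold (adjusted p = 0.982 in limma). Their summed value was 185 to 210 in IL-10 libraries and 281 to 352 in control libraries over 9 of 10 markers with a row. The groups did not overlap in 5 of the 9, all lower with IL-10, where 3.02% of all genes tested were lower without overlap. The low values were known when the markers were listed, so that count is a description. SCGB3A1, a secretoglobin gene, stood at 23.5 to 24.7 in IL-10 libraries and 57.8 to 75.6 in control libraries, and SCGB3A2 had no row. The mucin gene MUC5AC went the other way, at 41.7 to 66.5 in IL-10 libraries and 37.3 to 50.7 in control libraries, with overlap. The part of such transcripts in the values of SYCP3 and MAGEB2 was not tested.

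**Figure D4:**
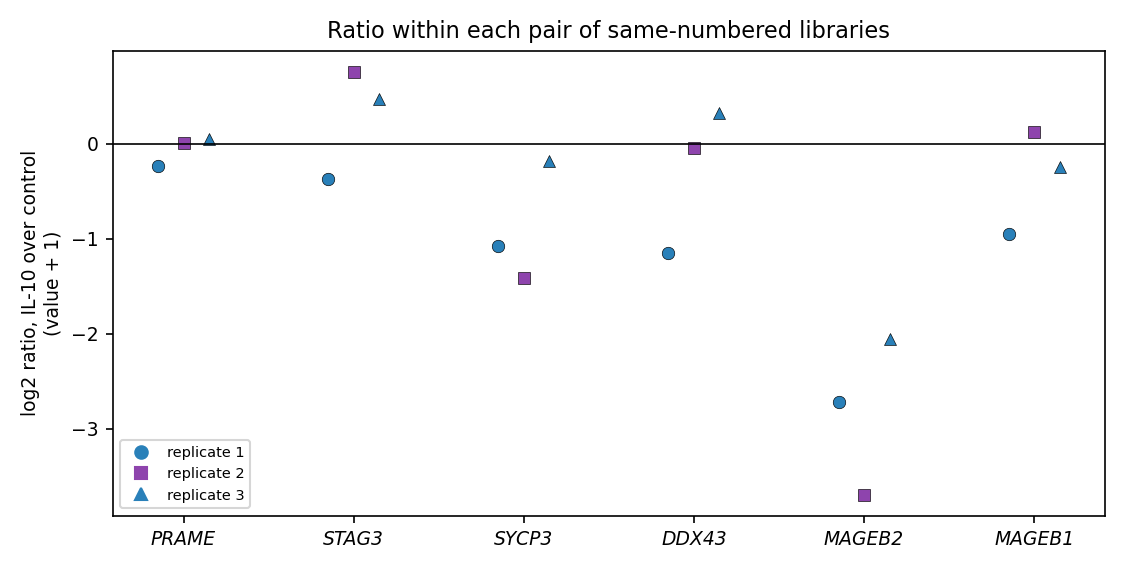
Log2 ratio of IL-10 over control (value + 1, y axis) within each pair of same-numbered libraries for the 6 members that passed the filter (x axis). SYCP3 lies below 0 in 3 of 3 pairs, from -1.41 to -0.19, MAGEB2 lies below -2 in 3 of 3, and PRAME lies between -0.24 and 0.05.

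Per kb of exon, PRAME led the members by a wide margin. Its mean over 6 libraries was 142 ± 12.97 normalised reads per kb (SD, n = 6; range 124 to 159), and the next, SYCP3, had 5.43 ± 2.26 (2.76 to 8.52). DDX43 followed at 3.57 ± 0.947 (1.90 to 4.65), STAG3 at 2.86 ± 0.837 (1.74 to 4.21), MAGEB2 at 2.65 ± 2.99 (0 to 7.41), MAGEB1 at 0.805 ± 0.6795 (0 to 1.81) and DDX4 at 0.0899 ± 0.141 (0 to 0.307). PRAME alone was clear of its neighbour, since the ranges of every other pair of neighbours in this order overlap. The place of MAGEB2 differed between the groups: with IL-10 it had 0.197 ± 0.341 per kb, the 6th of the 7, and in control 5.10 ± 2.06, the 3rd, between SYCP3 at 7.14 ± 1.79 and DDX43 at 3.90 ± 0.739 (SD, n = 3 each). With the longest transcript as length STAG3 had 5.51 and stands ahead of DDX43 at 3.99.

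Some other germline genes were more abundant in Kasumi-1 than any of these members. Of 59 other cancer-testis genes 13 had a row (22%), among them ACTL8, an actin-like gene, at 755 normalised reads per kb (range 536 to 1286). XAGE1A and XAGE1B, which share 50-base windows, had 69.6 and 49.9, below the 142 of PRAME. The piRNA cofactor gene GTSF1 had 1767 per kb (1669 to 2036), HENMT1, which methylates the ends of piRNAs, 449 (403 to 496) and GPAT2 343 (274 to 526), while PIWIL1 had no row. Of the 50-base windows of GPAT2 37.1% occur in transcripts of other genes, most often GPAT2P1, so its level is uncertain. SYCP2, the partner of SYCP3 in the lateral element, had 352 per kb (118 to 427), against 5.43 for SYCP3. The type II MAGE genes, which are expressed in many somatic tissues, had 7 of 11 with a row. Of the 3 of highest mean count, MAGED2 had 267 per kb, NSMCE3 261 and MAGED1 165, and MAGEF1, lower in count but shorter, had 291. With the longest transcript as length MAGED1 had 183 and PRAME 189.

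SYCP2 stood at 2595, 762 and 2582 in IL-10 replicates 1, 2 and 3, against 2759, 2367 and 2608 in control replicates 1, 2 and 3. Its low value was that of IL-10 replicate 2 alone, and its longest transcript has 34.4% GC. ACTL8, at 56.5% GC, stood at 1269, 2398 and 999 with IL-10, against 1255, 1452 and 1068 in control, and was highest in the same library.

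**Figure D5:**
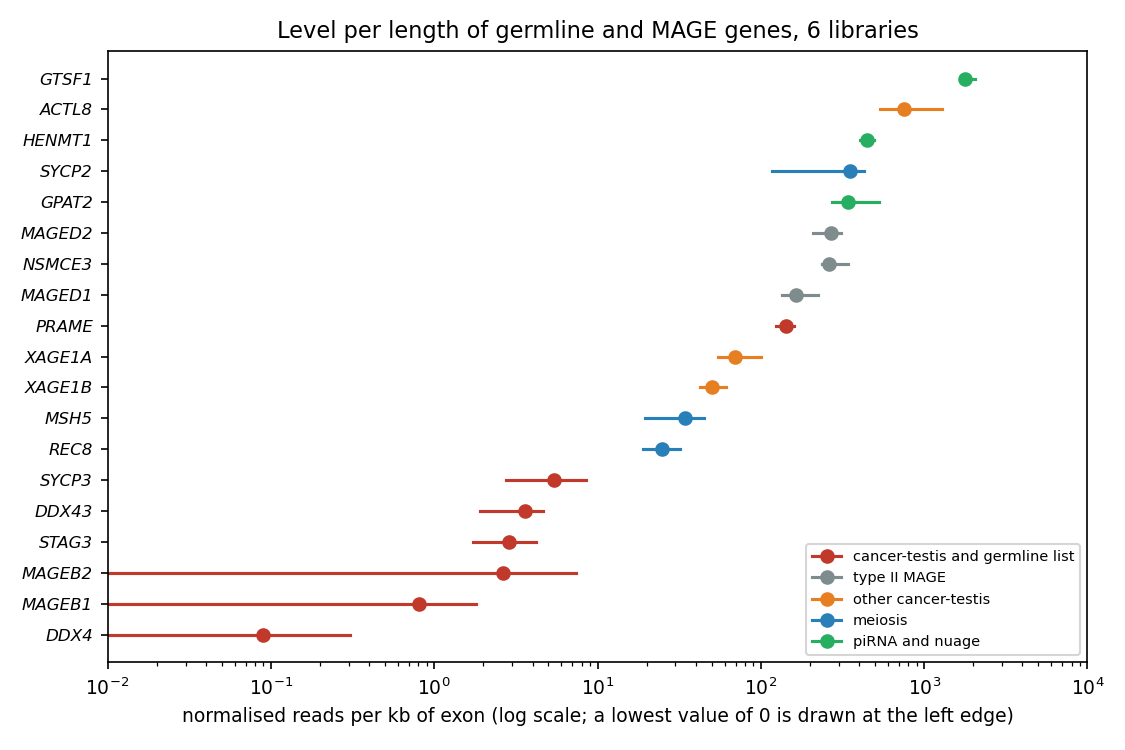
Normalised reads per kb of exon (x axis, log scale) of the 7 members with a row (red) and of the 3 genes of highest mean normalised count, not per kb, in each of 4 other groups (y axis); points are means and lines the range over 6 libraries, with a lowest value of 0 drawn at the left edge. The mean of PRAME, 142, lies below those of the 3 type II MAGE genes shown, and its range overlaps that of MAGED1. The other members lie below 10.

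No gene of these groups passed the threshold in limma in either direction, of 8 other cancer-testis, 14 meiosis, 13 piRNA, 6 type II MAGE and 24 repressor genes tested (lowest adjusted p = 0.982). Their median log2 fold changes were -0.04, -0.20, -0.08, 0.18 and 0.07, against 0.02 over all genes tested. The groups did not overlap in MEIOB, a meiotic recombination gene, at 0.95 to 2.35 in IL-10 libraries and 2.79 to 3.98 in control libraries. They also did not overlap in MOV10L1, a helicase gene of the piRNA pathway, at 3.53 to 9.50 in IL-10 libraries and 0.99 to 2.67 in control libraries. The groups did not overlap in 1 of 14 meiosis genes and 1 of 13 piRNA genes, against 5.87% of all genes tested. Both are a few reads, and both were singled out after their values were seen.

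Of the 25 genes that repress germline genes, 24 had a row. DNMT1, the maintenance DNA methyltransferase, stood at 12700, 20055 and 11410 in IL-10 replicates 1, 2 and 3, against 12999, 14080 and 11494 in control replicates 1, 2 and 3. TRIM28, a corepressor of retroelements, stood at 13944, 31461 and 12548 with IL-10, against 14121, 15901 and 12359 in control, and HDAC1, a histone deacetylase, at 7369, 9690 and 7131, against 7255, 8264 and 7446. All 3 were highest in IL-10 replicate 2, which held the highest value of 13 of the 24 genes, while 9 of the 24 were lowest there. The groups did not overlap in SETDB1, a histone methyltransferase gene, at 1050.5 to 1117 with IL-10 and 1029 to 1041 in control. It was 1 of 24, against 5.87% of all genes tested, and was singled out after its values were seen. DNMT3L, which guides DNA methylation in germ cells, had no row.

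Markers of testis cells were in part absent. Of 8 spermatid genes 3 had a row, and the protamine and transition protein genes PRM1, PRM2, TNP1 and TNP2 did not. ACRV1 had reads in all 6 libraries, at 9.50 to 31.0 with IL-10 and 17.7 to 23.9 in control. ACR had 8 reads and SPEM1 2 reads over all libraries. Of 8 spermatogonial genes 3 had a row (POU5F1, NANOS3 and ZBTB16). Of 6 Sertoli cell genes 4 had a row, while the defining receptor gene FSHR had none. AMH, whose longest transcript has 73.1% GC, was highest, at 946 to 1926 in IL-10 libraries and 934 to 1222 in control libraries. AMH, SOX9 and GATA4, 3 of these 4, were higher in both replicate 2 libraries, where liver genes other than SERPINA1 were high, than in the other 4 libraries. SOX9 stood at 11.8 in IL-10 replicate 2 and 14.9 in control replicate 2, and at 0 to 0.95 in the others. Of 6 Leydig cell genes 3 had a row, led by STAR, whose exons overlap ASH2L on the opposite strand.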

How the data were processed

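Total RNA of 6 Kasumi-1 samples was sequenced from Illumina TruSeq libraries, per the labels' protocols. The authors deposited 1 table, named FPKM, whose values are a normalised signal: reads divided by a size factor per library. In each library 100% of values were whole multiples of a step, within 0.01 read. The step of control replicate 2, 0.9944, is close to 1, and count tests were also run without that library. GRCh38, hg38 and edgeR 3.18.1 appear in the submitters' processing notes, without their role. No source used here gives the aligner, the counter or whether strand was used.

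Members and lists were chosen with earlier results of these data known. Of the identifiers in the table, 26883 were found among the gene names and 27052 in GENCODE 29, the source of coordinates and exon lengths. The planned test, made for FPKM, was kept: limma 3.58.1 in R 4.3.3, two-sided, fitted with a trend in intensity to log2(value + 1) of all genes that reached 1 in 3 libraries or more. An adjusted p under 0.05 was the threshold. A fold change on this scale is understated for low genes. edgeR 4.0.16 and DESeq2 1.42.0 on recovered reads were alternatives, and all 3 tools were tested on simulated data. Changes were simulated only in genes above the mean of every member but PRAME, without replicate effects. That check does not cover calls in the lower members. Every member with a row is given, and of each other list at most the 3 genes of highest mean, with exceptions stated. Same-numbered libraries deviated together: the correlation of their deviations over 11605 genes was 0.367, 0.605 and 0.726, all above the minimum of 0.1. Of the pairs with unlike numbers, IL-10 1 with control 3 had 0.176 and IL-10 3 with control 1 had 0.208, and the other 4 were negative. No label says that replicate numbers pair the samples. They were used as pairs only in fits with the replicate block and in ratios within same-numbered libraries. With the block on 6 libraries the interval of SYCP3 was -1.64 to -0.14 (adjusted p = 0.851 in limma). Values are from the fit without the block unless the block is named.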

Additional observations from a re-analysis of the deposited data

How the results depend on the processing

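The count of members past the threshold, other than MAGEB2, stayed at 0 in every setting run: other pseudocounts, filters and scalings, no trend, the replicate block, leaving out each library, edgeR, DESeq2 and, chosen after seeing the data, edgeR without control replicate 2 or IL-10 replicate 2. The count over all genes was 0 in all of these except replicates 1 and 3 only with the replicate block, where it was 11, with 4 libraries and 1 residual degree of freedom. The replicate block on 6 libraries gave 0 genes and changed no call of a member. No called result reversed, since none was called. Leaving out 1 library gave log2 fold changes of -0.16 to 0.0174 for PRAME and -0.47 to 0.0172 for DDX43, each positive in 1 of 6 such fits, without IL-10 replicate 1. For MAGEB1 they were -0.57 to 0.15 in the 3 such fits it entered, positive without IL-10 replicate 1, and it fell below the filter without IL-10 replicate 2, IL-10 replicate 3 or control replicate 3. For SYCP3 they were -1.11 to -0.71, and for STAG3 0.04 to 0.498. MAGEB2 fell below the filter without any 1 control library. Scaling to equal totals put the median over all genes at -0.08, against 0.02. Members that passed the filter numbered 4 to 7 under other filters. Depth limits MAGEB1, MAGEB2, DDX4 and DDX43, each with at most 14 reads in a library.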
